A study of Mus musculus with 4 samples.

Results

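Nuclear receptors and their coregulators were described in the livers of mice given an siRNA against Orm1 (siOrm) or a control siRNA (siControl). The genes were chosen by name from a list of 36, and each was valued by averaging the probe sets whose platform annotation gives its symbol alone. By this rule 32 of the 36 were found among the 10923 genes of the table, 27 of them receptors and 5 coregulators. Nr1h2, Nr2f1, Nr3c2 and Ncor1 were not analysed here. The 32 genes were covered by 48 probe sets, with 1 probe set for 19 genes and up to 3 for the other 13.

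The series looks for genes downstream of Orm1, the gene of the plasma protein orosomucoid, which hepatocytes release in the acute phase response. There were 2 siOrm arrays and 2 siControl arrays, all from male C57BL6/J mice aged 6 to 13 weeks. Each mouse received 1 injection of siRNA in Invivofectamine 3.0, a lipid reagent, and underwent a 40% partial hepatectomy after 3 days, an operation that makes the hepatocytes left behind divide. Livers were taken 48 h after the operation, which both groups had undergone, so no unoperated liver was compared. Whether the RNA of an array came from 1 mouse or from several is not labelled, so the p-values reflect array-to-array spread that may be technical. The titles number the siOrm arrays in a way that can also be read as Orm1 and Orm2; source name and description place both in 1 group.

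Nuclear receptors are transcription factors that bind DNA through zinc fingers and are switched by small lipid-soluble ligands such as fatty acids, oxysterols, retinoids, thyroid hormone and steroids. Many act as heterodimers with a retinoid X receptor. Ligand binding exchanges corepressors for coactivators, and in hepatocytes this controls fatty acid oxidation, bile acid and cholesterol handling, drug metabolism and glucose production. Orphan receptors are those named before any ligand was known, and some have none.

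Values are in log2 units (base 2 was assumed) after each probe set's median over the 4 arrays had been subtracted, and differences are siOrm minus siControl. The centring places the middle 2 arrays of a probe set at equal distances above and below 0. It also removes the signal level, so expression cannot be compared between genes, and it cannot be seen whether a gene was above background or whether hepatocyte markers were high. A whole-tissue array also cannot tell fewer cells of a type from less RNA per cell.

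The targeted gene checked the labels only weakly: Orm1 stood at -0.24 and -0.02 in the siOrm arrays, against 0.02 and 0.19 in the siControl arrays, a difference of -0.23 (SE 0.15; limma, adjusted p = 0.994). Its relatives Orm2 and Orm3 differed by -1.08 (SE 0.34) and -0.91 (SE 0.34). Leaving out single arrays gave -0.34 to -0.12 for Orm1, -1.46 to -0.69 for Orm2 and -1.43 to -0.39 for Orm3, which passed without siControl replicate 1 (limma, adjusted p = 0.0188) and was smallest without siControl replicate 2. The gap between the 2 arrays of a group had a standard deviation over all genes of 0.249 in siOrm and 0.384 in siControl. Macrophage markers moved with that gap. Their mean over 16 genes was -0.03 and -0.06 in the siOrm arrays, against -0.29 in siControl replicate 1 and 0.82 in siControl replicate 2. Cd14, a lipopolysaccharide coreceptor, had the widest range of these, at -0.15 and 0.15 in siOrm against -0.22 and 2.79 in siControl. Stellate cell markers (13 genes) had means of -0.05 and 0.09 in siOrm against -0.18 and 0.33 in siControl, endothelial markers (14 genes) -0.03 and 0.02 against -0.16 and 0.25, and neutrophil markers (11 genes) -0.10 and -0.06 against 0.11 and 0.53. The neutrophil mean of siControl replicate 2 rested on few genes: S100a8, S100a9 and Lcn2 stood at 2.75, 1.95 and 1.26 there, the list median was 0.08, and Ngp, Camp, Ltf, Mmp8 and Elane were below 0. The means of hepatocyte markers (13 genes) stayed close together, at 0.03 and 0.02 in siOrm and 0.02 and -0.06 in siControl. Both siOrm arrays were above both siControl arrays for 5 of these genes (38.5%) and below for 0, against 17.0% and 15.3% of all genes. Their median difference was 0.06.

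No nuclear receptor or coregulator passed the test between the groups. Of the 32 genes, 0 had an adjusted p under 0.05 (limma, Benjamini-Hochberg over all 10923 genes; smallest adjusted p = 0.994), and the background over all genes was 0%. At an unadjusted p under 0.05, 1 was higher in siOrm, Ppargc1b, and 1 was lower, Ncoa3. Over all genes 4.76% were under that level, 2.18% higher and 2.58% lower. The groups were separated, with no overlap of their arrays, for 4 of the 32 genes with siOrm above (Nr1i3, Rxrg, Esrra and Ppargc1b) and for 2 with siOrm below (Rara and Ncoa3). The background was 17.0% above and 15.3% below, so fewer of these genes were separated than of all genes, and no test was made of that. The median difference of the 32 genes was 0.05, against 0.0084 over all genes.

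The differences were small and their intervals bound them. They ran from -0.71 to 0.55, with 20 above 0 and 12 below. The 95% interval lay between -1 and 1, that is within a doubling or a halving, for 29 of the 32 genes, where the background was 92.7%. The genes whose interval passed -1 were Rarb, Ncoa3 and Nrip1. Arrays of the same group often differed more than the groups did: the 2 siControl arrays were further apart than the group means for 25 of the 32 genes, with a background of 66.9%. The siOrm arrays were more than 0.5 apart for 4 of the 32 genes, with a background of 4.62%, and the siControl arrays for 7, with a background of 12.8%. When each array was left out in turn, the sign of the difference held throughout for 12 genes and changed at least once for 20. No such count was made over all genes, so it has no background.

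**Figure D1:**
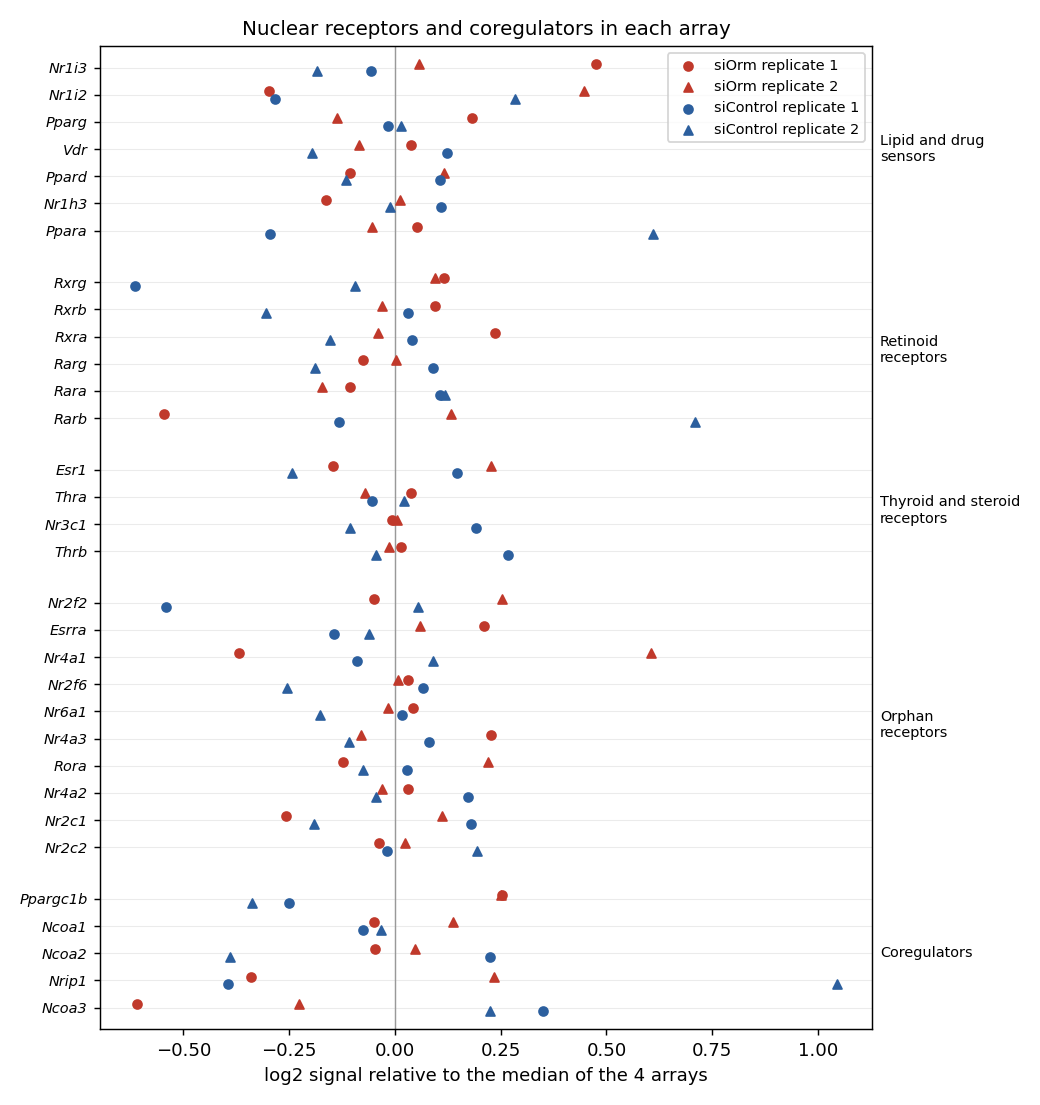
Signal of the 32 genes in each array, as log2 relative to the median of the 4 arrays; rows are genes by role, red points siOrm and blue points siControl, with circles for replicate 1 and triangles for replicate 2. Ppargc1b and Ncoa3 show the groups apart, with siOrm to the right and to the left, while Nrip1, Rarb and Nr4a1, the 3 widest rows, have overlapping groups.

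The fatty acid, oxysterol and drug sensing receptors gave 7 measured genes, of which 1 had both siOrm arrays above both siControl arrays and 0 below. Over all genes the shares were 17.0% and 15.3%. Ppara, the fatty acid receptor that drives hepatic fatty acid oxidation, stood at 0.05 and -0.05 in siOrm, against -0.30 and 0.61 in siControl. The siOrm values lie inside the siControl ones. Its difference was -0.16 (SE 0.30, 95% interval -0.90 to 0.59; limma, adjusted p = 0.999). It turned to 0.30 without siControl replicate 2 and was -0.61 without siControl replicate 1. Ppara was highest in siControl replicate 2, the array with the highest macrophage marker mean, and the part of those cells in the value was not tested.

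Nr1i3, the constitutive androstane receptor, which induces drug-metabolising enzymes, was the separated gene of this group. It stood at 0.48 and 0.06 in siOrm, against -0.06 and -0.18 in siControl. The higher siOrm array set the size: the difference was 0.39 (SE 0.18, 95% interval -0.06 to 0.84; limma, adjusted p = 0.994), and 0.18 without siOrm replicate 1. Nr1i2, the pregnane X receptor, the other main drug sensor of hepatocytes, stood at -0.30 and 0.45 in siOrm, against -0.28 and 0.28 in siControl. Both groups spanned nearly the same range, and the difference was 0.07 (SE 0.31). Its 2 probe sets had the same order of arrays, with differences of 0.05 and 0.10.

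Nr1h3, the oxysterol receptor LXR-alpha, stood at -0.16 and 0.01 in siOrm, against 0.11 and -0.01 in siControl, a difference of -0.12 (SE 0.14), or -0.04 without siOrm replicate 1. Its groups overlapped by 1 array. Pparg, best known for fat cell formation, differed by 0.02 and Ppard, a widely expressed fatty acid receptor, by 0.0078; the siOrm arrays were at 0.18 and -0.14 for Pparg and at -0.11 and 0.12 for Ppard. Vdr, the vitamin D receptor, differed by 0.01, and its 2 probe sets went opposite ways, at 0.21 and -0.19.

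Retinoid receptors gave 6 measured genes, 1 separated upwards and 1 downwards, against 17.0% and 15.3% of all genes. Rxrg, a retinoid X receptor best known in muscle and brain, stood at 0.11 and 0.09 in siOrm, against -0.61 and -0.09 in siControl. The siOrm arrays lay close together and siControl replicate 1 was far below. The difference was 0.46 (SE 0.20, 95% interval -0.04 to 0.95; limma, adjusted p = 0.994), and it was 0.20 without siControl replicate 1. Rara, a receptor for all-trans retinoic acid, stood at -0.11 and -0.17 in siOrm, against 0.11 and 0.12 in siControl. Both groups were tight and apart, but the difference was small, at -0.25 (SE 0.13, 95% interval -0.57 to 0.06; limma, adjusted p = 0.994).

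Of the 4 separated genes with a promoter window, Rxrg and Rara had one that holds AGGTCA, the core hexamer that many nuclear receptors bind, so those windows are shown here; the other windows of both genes do not hold it. Each runs from 250 bases before to 50 after a RefSeq transcription start in GRCm38.p6, on the + strand, and capitals mark the hexamer. That of Rxrg is chr1:167618015-167618314, with the hexamer beginning 88 bases before the start, and that of Rara is chr11:98964622-98964921, with the hexamer beginning 33 bases after it.
Rxrg: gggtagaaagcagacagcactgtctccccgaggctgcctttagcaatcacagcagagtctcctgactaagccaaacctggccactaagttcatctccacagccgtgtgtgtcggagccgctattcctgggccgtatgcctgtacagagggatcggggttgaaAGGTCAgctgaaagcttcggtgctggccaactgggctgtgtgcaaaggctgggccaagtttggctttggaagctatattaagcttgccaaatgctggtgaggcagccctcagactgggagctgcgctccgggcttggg
Rara: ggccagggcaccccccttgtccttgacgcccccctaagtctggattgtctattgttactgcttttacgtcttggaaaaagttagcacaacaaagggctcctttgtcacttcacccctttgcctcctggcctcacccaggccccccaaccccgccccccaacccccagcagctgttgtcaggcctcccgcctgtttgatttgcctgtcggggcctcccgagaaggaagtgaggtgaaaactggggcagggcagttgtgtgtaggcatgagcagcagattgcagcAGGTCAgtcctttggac
AGGTCA or its reverse complement TGACCT was found in 8 of 41 promoter windows of the measured genes (19.5%) and in 16.3% of all 32851 windows. The direct repeat AGGTCANAGGTCA, the form bound by peroxisome proliferator-activated receptors with a retinoid X receptor, was in 0 of the 41 windows and in 0.0396% of all, both strands searched. Windows were found for 27 of the 32 genes, and not for Ncoa2, Ncoa3, Nr3c1, Ppargc1b and Thra. The arrays hold no binding data, so a match describes only the letters.

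Rxra, the main retinoid X receptor of hepatocytes and the shared partner of the drug and lipid sensors, stood at 0.24 and -0.04 in siOrm, against 0.04 and -0.15 in siControl. The groups overlapped, and the difference was 0.15 (SE 0.16, 95% interval -0.24 to 0.55), or 0.02 without siOrm replicate 1. Its 2 probe sets had differences of 0.18 and 0.12. Rxrb, its widely expressed relative, differed by 0.17 with values of 0.10 and -0.03 in siOrm against 0.03 and -0.30 in siControl, and by 0.0018 without siControl replicate 2. Rarb, a retinoic acid receptor that is itself induced by retinoic acid, had one of the widest spreads, at -0.55 and 0.13 in siOrm against -0.13 and 0.71 in siControl. Replicates of the same group lay further apart than the group means, and the difference of -0.49 (SE 0.35) shrank to -0.15 when siOrm replicate 1 was left out, or to -0.07 when siControl replicate 2 was. Rarb too was highest in siControl replicate 2, where the means of the stellate cell and macrophage marker lists were highest. The stellate list was mixed in that array. Its median was 0.44, with Col3a1, Rgs5, Dcn and Col1a2 at 0.69 to 0.84, while Reln, Ngfr, Hand2 and Ecm1 were below 0. The part of those cells in the value of Rarb was not tested. Rarg differed by 0.01, from probe sets at -0.14 and 0.17.

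Thyroid and steroid hormone receptors, 4 genes, had the smallest median size of difference of the 5 role groups, at 0.07, and 0 of 4 were separated. Over all genes 32.3% were separated in either direction. Thrb, the main thyroid hormone receptor of hepatocytes, stood at 0.01 and -0.01 in siOrm, against 0.27 and -0.04 in siControl, a difference of -0.11 (SE 0.16, 95% interval -0.50 to 0.28). Nr3c1, the glucocorticoid receptor, stood at -0.0068 and 0.0042 in siOrm, against 0.19 and -0.11 in siControl, a difference of -0.04 (SE 0.15, 95% interval -0.43 to 0.34). For both genes the siOrm arrays nearly coincided inside the siControl range. Thra, the other thyroid hormone receptor, differed by less than 0.01, with a 95% interval from -0.33 to 0.32 and probe sets at 0.07 and -0.07. Esr1, the oestrogen receptor, differed by 0.09 (SE 0.20), at -0.15 and 0.23 in siOrm against 0.15 and -0.24 in siControl.

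Orphan receptors gave 10 measured genes, 1 separated upwards and 0 downwards, against 17.0% and 15.3% of all genes. Esrra, oestrogen-related receptor alpha, which switches on mitochondrial genes together with coactivators of the Ppargc1 family, stood at 0.21 and 0.06 in siOrm, against -0.14 and -0.06 in siControl. The groups were apart by a small margin, with a difference of 0.24 (SE 0.13, 95% interval -0.10 to 0.57; limma, adjusted p = 0.994). Nr2f2 (COUP-TFII), abundant in non-parenchymal and venous cells, stood at -0.05 and 0.25 in siOrm, against -0.54 and 0.05 in siControl. Its 3 probe sets all had positive differences, from 0.15 to 0.47, and the mean of 0.35 (SE 0.24) was 0.05 without siControl replicate 1, which was the low array. Nr2f6, a relative that represses transcription, differed by 0.11.

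The Nr4a receptors are immediate early genes with no need for ligand, induced rapidly by many stimuli. Nr4a1 stood at -0.37 and 0.61 in siOrm, against -0.09 and 0.09 in siControl. The siOrm arrays stood on opposite sides of both siControl arrays and 0.97 apart, so the difference of 0.12 (SE 0.32) had a 95% interval from -0.68 to 0.92. Nr4a2 and Nr4a3 differed by -0.06 and 0.09. Rora, an activator of clock genes, differed by 0.07, with probe sets from -0.0039 to 0.12. The testicular receptors Nr2c1 and Nr2c2, repressors that bind direct repeats, differed by -0.07 and -0.10, and for each gene the probe sets disagreed in sign. Nr6a1, the germ cell nuclear factor, differed by 0.09.

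Coregulators held both genes with an unadjusted p under 0.05. Ppargc1b, a coactivator of the PGC-1 family that raises mitochondrial and lipogenic transcription, stood at 0.25 and 0.25 in siOrm, against -0.25 and -0.34 in siControl. Both groups were tight and lay apart. The difference was 0.55 (SE 0.13, 95% interval 0.23 to 0.86), a ratio of 1.46, with an unadjusted p of 0.00596 and an adjusted p of 0.994 (limma). By p it ranked 57 of 10923 genes, and leaving out single arrays gave differences of 0.50 to 0.59. It rests on 1 probe set.

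Ncoa3, a histone acetyltransferase-recruiting coactivator of steroid and other receptors that also promotes growth, went the other way. It stood at -0.61 and -0.23 in siOrm, against 0.35 and 0.23 in siControl. All siOrm values were below all siControl values, with siOrm replicate 1 the lowest. The difference was -0.71 (SE 0.17, 95% interval -1.14 to -0.27), a ratio of 0.61, with an unadjusted p of 0.00753 and an adjusted p of 0.994 (limma). It ranked 69 of 10923 and lay between -0.90 and -0.51 without any 1 array. Its 1 probe set was again the only one with this symbol. Over all genes, 520 had an unadjusted p under 0.05.

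The other coregulators overlapped. Ncoa1 and Ncoa2, relatives of Ncoa3, stood at 0.10 (SE 0.14) and 0.08 (SE 0.22) as differences, and the difference between Ncoa3 and its relatives was not tested. The probe sets of Ncoa1 disagreed, at 0.27 and -0.07, and without siOrm replicate 2 its difference was 0.0052. Nrip1 (RIP140), a corepressor recruited by ligand-bound receptors, stood at -0.34 and 0.23 in siOrm, against -0.40 and 1.05 in siControl. Its siControl arrays were 1.44 apart, the widest such gap of the 32 genes, and the difference of -0.38 (SE 0.48, 95% interval -1.57 to 0.82) turned to 0.34 without siControl replicate 2. Both probe sets of Nrip1 were highest in siControl replicate 2, at 1.13 and 0.96, with the macrophage marker mean also highest there. The part of those cells in the value was not tested.

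**Figure D2:**
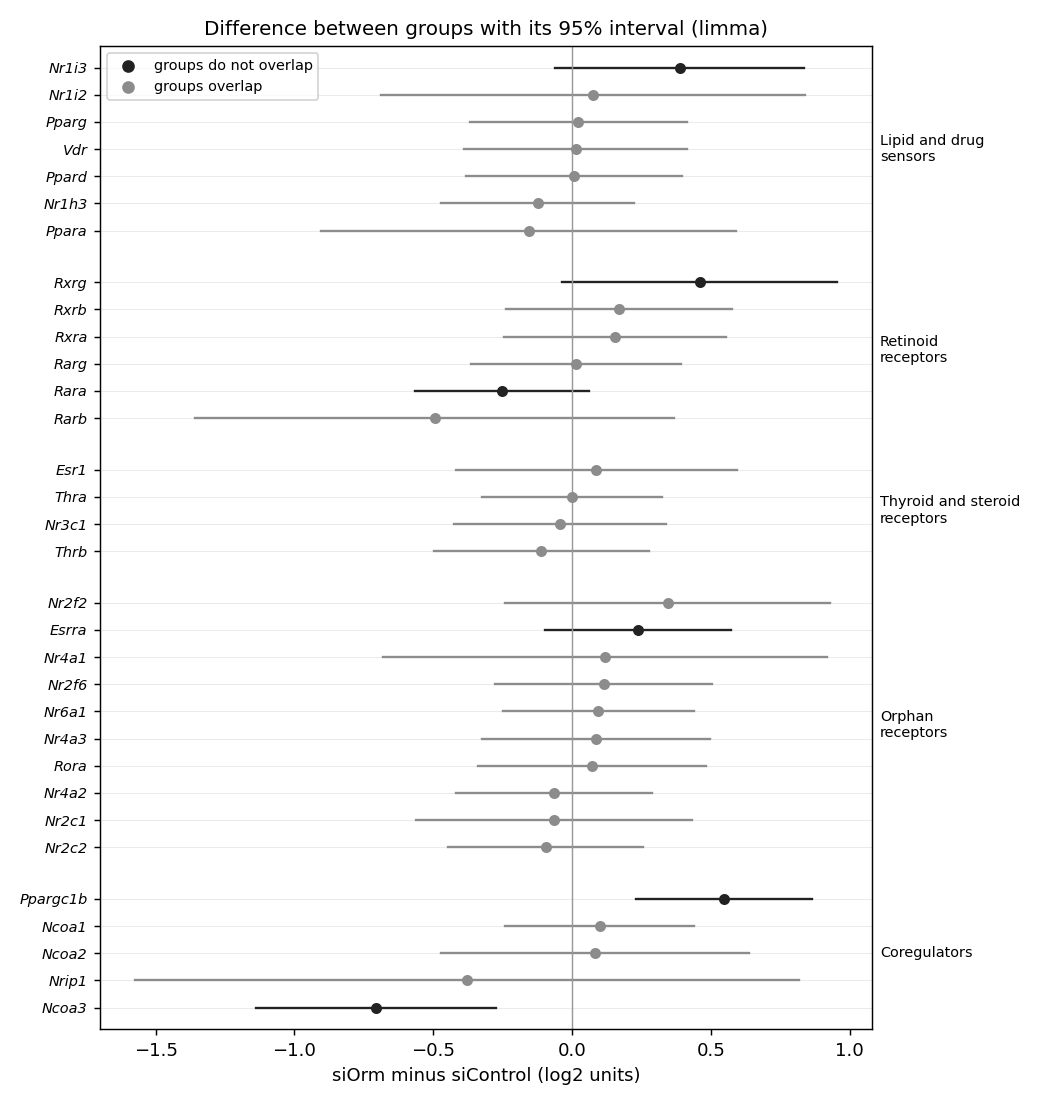
Differences between groups, siOrm minus siControl in log2 units, as points with 95% intervals from limma; rows are genes by role, with dark points where the groups do not overlap and grey points where they do. Only the intervals of Ppargc1b (0.23 to 0.86) and Ncoa3 (-1.14 to -0.27) leave out 0, before any adjustment for the number of genes.

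**Figure D3:**
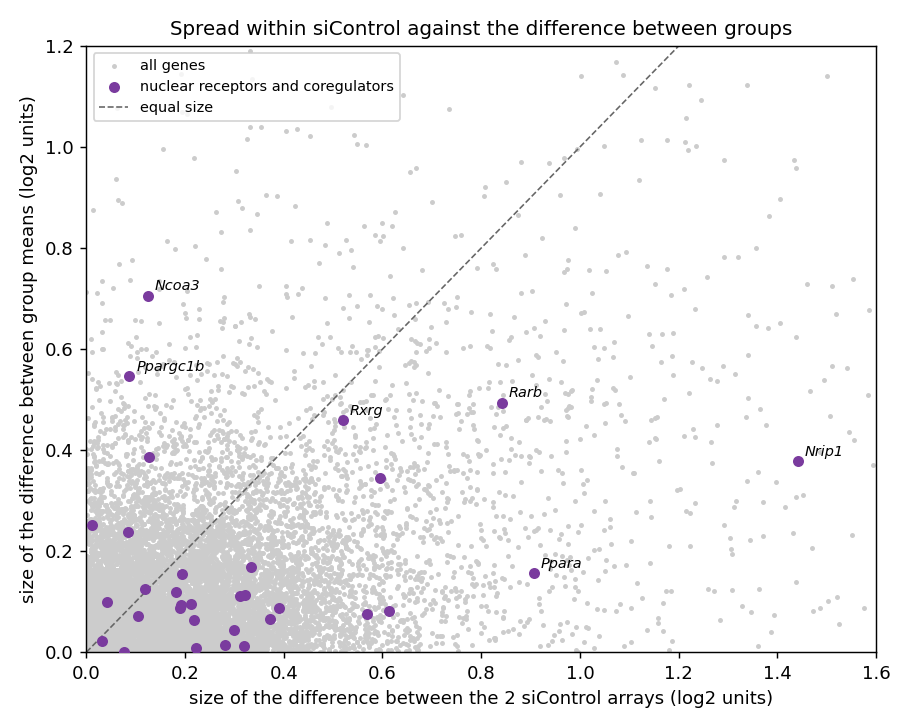
Size of the gap between the 2 siControl arrays (horizontal axis) against the size of the difference between group means (vertical axis), both in log2 units; grey points are all genes, purple points the receptors and coregulators, and the dashed line marks equal size, with 88 genes beyond the axes. Purple points under the line are the 25 genes whose siControl arrays were further apart than the groups, and Ncoa3 and Ppargc1b stand furthest above it.

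Other members of both families, taken from fixed lists, had no call either. Of 12 further nuclear receptors 2 were separated upwards and 0 downwards, against 17.0% and 15.3% of all genes, and 0 passed. Their median difference was 0.04, and it was 0.20 without siControl replicate 1 and -0.09 without siControl replicate 2. Nr1h4, the bile acid receptor FXR, stood at 0.97 and 0.05 in siOrm, against -0.05 and -0.25 in siControl, a difference of 0.66 (SE 0.31) that was 0.20 without siOrm replicate 1. Nr0b2, the FXR-induced repressor SHP, stood at -0.48 and 0.06 in siOrm, against -0.06 and 1.09 in siControl, a difference of -0.73 (SE 0.40) that was -0.15 without siControl replicate 2. The haem receptor and clock repressor Nr1d1 differed by 0.37 (SE 0.30) and turned to -0.07 without siControl replicate 2, and Rorb by 0.16 (SE 0.14), or by 0.08 without siOrm replicate 2.

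Of 26 further coregulators 3 were separated upwards and 4 downwards, against 17.0% and 15.3% of all genes. None passed, and the median difference was -0.05. Pprc1, a member of the same coactivator family as Ppargc1b that serves growth-linked mitochondrial transcription, stood at -0.43 and -0.21 in siOrm, against 0.21 and 0.22 in siControl. Its difference was -0.54 (SE 0.14; limma, adjusted p = 0.994), opposite in sign to that of Ppargc1b. Helz2, a PPAR-interacting helicase, differed by -0.31, Brd8 by -0.24 and the acetyltransferase gene Crebbp by 0.20. Without siControl replicate 2, Helz2 was -0.13 and Brd8 -0.11.

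Genes that the receptors control were then set beside the receptors. The counts and medians take no account of whether a receptor raises or lowers a gene, so they do not measure receptor activity. No target gene passed either (limma, smallest adjusted p = 0.857). At an unadjusted p under 0.05, where the background was 2.18% higher and 2.58% lower, 12 PPAR-alpha targets were higher and 0 lower, 8 CAR and PXR targets higher and 0 lower, and 3 glucocorticoid targets higher and 3 lower. Of retinoic acid targets 1 was higher and 1 lower, of FXR and of thyroid hormone targets 1 each was higher and 0 lower, and of LXR targets 0 were either. Under the alternative fits, target genes were looked up only if among the 4 with the smallest p of their list. Of these, Cyp4a14, Angptl4, Lpl and Dio1 were called without siControl replicate 1, a fit with 1 siControl array. Whether other genes of the lists were called there was not looked up. Leaving out single arrays gave 1.44 to 2.07 for Cyp4a14, 0.80 to 1.10 for Angptl4, -1.17 to -0.17 for Lpl and 0.32 to 0.96 for Dio1. With a variance prior that follows the mean, Cyp4a14 passed (limma, adjusted p = 0.0418). After the centring that mean holds no signal level, so this fit is not the usual trend with intensity. The lists share some genes and were written with earlier results on some of these genes known, so their direction is not independent evidence. Of 40 measured PPAR-alpha target genes 28 had both siOrm arrays above both siControl arrays (70.0%) and 2 below, against 17.0% and 15.3% of all genes. Their median difference was 0.31, and leaving out single arrays gave 0.21 to 0.34. The list mean was 0.19 and 0.14 in siOrm, against -0.15 and -0.26 in siControl. Ppara itself had no such order of arrays.

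Of that list, Cyp4a14, a fatty acid omega-hydroxylase, stood at 1.11 and 0.59 in siOrm, against -0.59 and -1.22 in siControl, a difference of 1.75 (SE 0.27; limma, adjusted p = 0.857). Angptl4, an inhibitor of lipoprotein lipase, stood at 0.34 and 0.57 in siOrm, against -0.34 and -0.65 in siControl, a difference of 0.95 (SE 0.17). The acyl-CoA thioesterase genes Acot4 and Acot3 differed by 0.80 (SE 0.14) and 2.06 (SE 0.46); Acot3 was 1.34 without siOrm replicate 1. All siOrm values were above all siControl values for these 4 genes. Of the whole list 35 differences were positive and 5 negative. Plin2 and Fads2, at -0.22 and -0.25, were the genes separated downwards. Pdk4, Fgf21 and Plin5, at -0.78, -0.23 and -0.06, were lower with overlapping groups. Single arrays set these values. Pdk4 stood at 0.01 and -0.01 in siOrm, against -0.07 and 1.63 in siControl. Fgf21 stood at -0.21 and 0.21 against 0.68 and -0.22, and Plin5 at -0.26 and 0.15 against -0.0036 and 0.0036. Probe sets of close relatives, such as the Acot, Cyp4a, Cyp2c and Orm genes, may share signal and are uncertain.

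Of 28 CAR and PXR target genes 12 were separated upwards and 2 downwards, against 17.0% and 15.3% of all genes, with a median difference of 0.20; this is the list that goes with Nr1i3 and Nr1i2. Without siControl replicate 1 the counts were 15 upwards and 12 downwards, with a median of 0.16. Without siControl replicate 2 they were 21 and 3, with a median of 0.34. Separation is easier with an array left out. The share of all genes there was not computed, so these counts cannot be set against 17.0% and 15.3%. Slco1a4, an organic anion transporter, stood at 0.99 and 0.35 in siOrm, against -1.05 and -0.35 in siControl, a difference of 1.37 (SE 0.31; limma, adjusted p = 0.994). The drug-metabolising genes Cyp2c50, Sult1d1 and Cyp2c38 differed by 0.55, 0.62 and 0.61; Sult1d1 was 0.38 without siOrm replicate 1 and Cyp2c38 was 0.37 without siControl replicate 2. The siControl arrays were more than 0.5 apart for 15 of the 28 genes, where the background was 12.8%. Of the Cyp2b genes on the list, Cyp2b9 was separated upwards, with a difference of 2.14 (SE 0.81). It stood at 2.74 and 0.22 in siOrm, against -1.11 and -0.22 in siControl. Cyp2b10 had overlapping groups, at 0.83 and -0.83 in siOrm against -2.11 and 1.09 in siControl. Cyp2b13 also overlapped, with a difference of 0.10. Cyp3a11 overlapped too, with a difference of 0.05. The 2 genes separated downwards were Alas1, at -0.38, and Gstm3, at -1.57 with siControl replicate 2 at 2.64.

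The medians of the other target lists changed with the array left out. Their counts of separated genes stand against 17.0% upwards and 15.3% downwards over all genes. Of 16 LXR targets 2 were separated upwards and 3 downwards, with a median of 0.0013, and of -0.11 to 0.04 with single arrays left out. Of 10 FXR targets 1 was separated upwards and 0 downwards, with a median of 0.04 that was 0.22 without siControl replicate 2 and -0.06 without siControl replicate 1. The LXR targets with the smallest p were Lpl, Abca1, Scd1 and Fasn, at -0.67, -0.45, -0.40 and -0.78. Of these, Lpl, Scd1 and Fasn were -0.17, -0.16 and -0.29 without siControl replicate 2, and Abca1 was -0.15 without siOrm replicate 1. Among FXR targets the bile salt importer gene Slc10a1 had a difference of 0.66 (SE 0.24), and of 0.37 without siOrm replicate 1. Nr0b2, described above, is on this list too. The bile acid hydroxylase gene Cyp8b1 and the transporter gene Slc51a differed by 0.49 (SE 0.76) and 0.10 (SE 0.16), and both changed sign without siOrm replicate 1.

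Thyroid hormone targets, 9 genes, had 2 separated upwards and 0 downwards, against 17.0% and 15.3% of all genes, and a median of 0.15. Dio1, the hepatic deiodinase, stood at 0.21 and 0.14 in siOrm, against -0.14 and -0.78 in siControl, a difference of 0.64 (SE 0.23) that was 0.32 without siControl replicate 2. Me1, the malic enzyme, differed by 0.27 (SE 0.13), Idh3a by 0.24 and Cyp17a1 by 0.48. Leaving out siOrm replicate 1 gave a list median of 0.03, and leaving out siControl replicate 2 gave 0.32. Of 25 glucocorticoid targets 3 were separated upwards and 6 downwards, with a median of 0.02 that became -0.16 after quantile normalization and -0.22 without siControl replicate 2. Angptl4 is on this list too. The glucose-6-phosphatase gene G6pc and Gadd45a differed by 1.34 (SE 0.36) and 0.90 (SE 0.27), and Igfbp1 by -0.72 (SE 0.20); G6pc was 0.86 without siControl replicate 1 and Gadd45a 0.55 without siOrm replicate 1. Of 10 retinoic acid targets, a list that includes Rarb, 1 was separated upwards and 3 downwards, with a median of 0.0081 that was -0.29 without siOrm replicate 2 and 0.04 without siOrm replicate 1. Bhlhe40 and Dhrs3 differed by -0.36 (SE 0.13) and 0.34 (SE 0.13), and Tgm2 and Rdh11 by -0.65 and -0.48, or by -0.29 and -0.21 without siControl replicate 2.

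**Figure D4:**
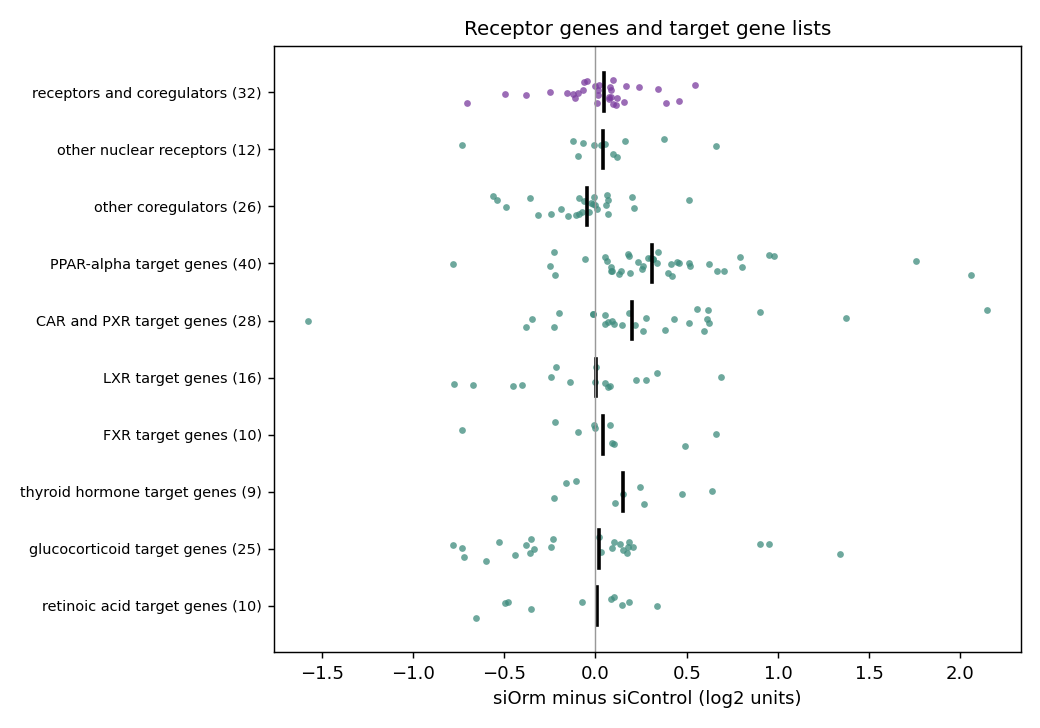
Differences of single genes, siOrm minus siControl in log2 units (horizontal axis), for the 32 receptors and coregulators and for the lists of further receptors, further coregulators and target genes. The orosomucoids and the cell marker lists are not drawn. Brackets give the number of measured genes and a black bar marks the list median. The vertical position within a row is arbitrary. The PPAR-alpha target list has its median at 0.31, while the receptors and coregulators have theirs at 0.05.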

How the data were processed

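Liver RNA was measured on 2 siOrm and 2 siControl single-colour arrays. The array is an Affymetrix Mouse Genome 430A 2.0 by the series text, yet the labels' protocols describe another maker's labelling and RNA from culture cells; which holds is unknown. The authors deposited 18852 probe sets as log2 signal (base not stated, taken as 2; if natural logarithms were used, differences grow 1.44 times) with each probe set's median over the 4 arrays subtracted. The sources used here name neither software nor normalization. No filter on dim probe sets was possible, and the number of arrays limits the precision.

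Of the probe sets, 17209 had 1 gene symbol in the platform annotation and gave 10923 genes; probe sets of a gene were averaged. Differences were tested with limma 3.58.1 in R 4.3.3 (lmFit, eBayes, constant variance prior, two-sided), Benjamini-Hochberg over all genes, threshold 0.05. On data simulated from the fitted prior for this comparison (10923 genes, 20 simulations), the test recovered 64.8% of the genes given a change of 1 in log2 and 97.0% of those given 2. The simulations held a set of changed genes each time and independent normal noise of equal spread in both groups. The measured gaps had standard deviations of 0.249 in siOrm and 0.384 in siControl. Cyp4a14 and Acot3, at 1.75 and 2.06, were not called, so these shares may not carry over to these arrays.

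The genes described, the 5 role groups and the 18 further lists (10 of related receptors, coregulators, targets and orosomucoids and 8 of cell markers) were chosen with earlier results of these data known. Lists are described by counts and medians. Array values are given for genes whose groups do not overlap, those with an unadjusted p under 0.05, and, whatever their values, Ppara, Rxra, Nr1h3, Nr1i2, Nr1i3, Nr3c1, Thrb and Nrip1; array values of other members were added after their values were seen. From each list of receptors, coregulators and targets the 4 genes with the smallest p were named (fewer where lists share them). From marker lists the gene with the widest range was named. Other target and marker genes were added after their values were seen. Promoter windows are from RefSeq (GRCm38.p6). Alternatives were quantile normalization, subtracting array medians, the median of probe sets, leaving out shared-sequence probe sets, other variance priors, single probe sets, a replicate block and leaving out each array.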

Additional observations from a re-analysis of the deposited data

How the results depend on the processing

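Of the 32 receptors and coregulators, 0 passed the adjusted threshold under any alternative run. The count over all genes was 0 except with a variance prior that follows the mean, which called 11, and without siControl replicate 1, which called 229, so that it ran from 0 to 229 when 1 array was left out; in that fit siControl replicate 2 alone stands for its group and is assumed to vary like siOrm. The prior that follows the mean used the mean of centred values, which holds no signal level. Leaving out 1 array makes separation easier by construction: the receptors and coregulators with siOrm above siControl then numbered 8 to 17, and those below 4 to 11. The share of all genes in those runs was not computed, so these counts have no background. The median difference of the receptors and coregulators ran from -0.030 to 0.11. Quantile normalization turned Pparg to -0.017 and Vdr to -0.049, and moved Nrip1 to -0.019, Ppara to -0.040, Rarb to -0.23, Nr1i2 to 0.35 and Nr4a1 to 0.44. The median of probe sets turned Nr2c2 to 0.0070. The fit with the replicate number as a block called 0 genes in all and 0 of the 32, without a call changed; the numbers do not establish pairs, and the deviations of equal numbers correlated at 0.132 over genes. Probe sets tested singly gave 0 calls. Signs changed when some 1 array was left out, by the ranges Ppara -0.61 to 0.30, Pparg -0.14 to 0.18, Ppard -0.10 to 0.12, Nr1i2 -0.30 to 0.45, Vdr -0.15 to 0.17, Rarg -0.13 to 0.15, Thra -0.054 to 0.054, Thrb -0.27 to 0.044, Nr3c1 -0.19 to 0.10, Esr1 -0.11 to 0.28, Nr2c1 -0.25 to 0.12, Nr2c2 -0.20 to 0.010, Nr2f6 -0.047 to 0.27, Nr4a1 -0.37 to 0.61, Nr4a2 -0.17 to 0.045, Nr4a3 -0.067 to 0.24, Nr6a1 -0.0024 to 0.19, Rora -0.10 to 0.24, Ncoa2 -0.22 to 0.39, Nrip1 -1.10 to 0.34, Nr1d1 -0.073 to 0.82, Cyp8b1 -0.65 to 1.63, Slc51a -0.062 to 0.27 and Cyp17a1 -0.11 to 1.06.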

Other observations

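Among the 32 receptors and coregulators, the widest siControl gaps, replicate 2 minus replicate 1, were those of Nrip1 at 1.44, Ppara at 0.91 and Rarb at 0.84. The widest siOrm gaps were those of Nr4a1 at 0.97 and Nr1i2 at 0.74. For siControl, replicate 2 held the lowest value of the 4 arrays for 15 of the 32 genes and the highest for 5, and replicate 1 the lowest for 6 and the highest for 10. The same was not counted over all genes. The median of all genes was also lowest in siControl replicate 2, at -0.026. It was 0.013 in siControl replicate 1 and -0.0024 and 0.0066 in siOrm. Lymphocyte markers (12 genes) had means of 0.14 and -0.02 in siOrm against 0.12 and -0.15 in siControl, cholangiocyte markers (6 genes) -0.08 and 0.14 in siOrm against -0.02 and 0.29 in siControl, and erythroid markers (5 genes) 0.34 and 0.04 in siOrm against -0.05 and -0.21 in siControl. The cholangiocyte mean of siControl replicate 2 rested on Prom1 at 1.18 and Sox9 at 0.74; the list median there was 0.01, and Krt7, Krt19 and Epcam were below 0.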
